A study of Homo sapiens with 6 samples.

Results

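The granule genes described here are 10 genes of myeloid granule content, chosen by symbol, with earlier results of these data known. They are myeloperoxidase (MPO), the serine protease family members ELANE, AZU1, PRTN3 and CTSG, lysozyme (LYZ), the proteoglycan serglycin (SRGN), the secreted RNases RNASE2 and RNASE3, and the cystatin CST7. All 10 were present among the 26485 genes of the count table. RNA was taken from THP1 cells, an established human acute monocytic leukemia cell line, after 6 h with the steroidal lactone withaferin A (WFA) or with its DMSO vehicle. Each group had 3 libraries, and each replicate number stood for 1 of 3 independent experiments in which both treatments were run. WFA stands at 1 mM in the sample labels. The written methods and the legends of the study's RNA-seq figures both give 1 μM for 6 h in THP1 cells. The counts themselves cannot settle which was used. THP1 is a single line with no normal myeloid cells beside it, and no allele or further agent is named for either group.

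Azurophil granules are the first granules that a myeloid precursor makes. Neutrophil elastase (ELANE), proteinase 3 (PRTN3) and cathepsin G (CTSG) are stored there as active serine proteases, together with azurocidin (AZU1), a family member without protease activity. MPO is the heme enzyme that makes hypochlorous acid, LYZ cleaves bacterial cell walls, and SRGN carries the acidic sugar chains on which these basic proteins are packed. RNASE2 and RNASE3 are the eosinophil-derived neurotoxin and the eosinophil cationic protein, and CST7 (cystatin F) inhibits cysteine cathepsins, among them the CTSC enzyme that activates the serine proteases. Most of these transcripts are made at the promyelocyte stage, and C/EBP factors, PU.1 and c-MYB are known to act at several of their promoters.

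The stretch just before the start was available from RefSeq for 5 of the 10 genes. The RNASE2 and RNASE3 stretches are shown because these paralogs had very similar sequences there and very different counts. Each runs 5′ to 3′ from 250 to 11 bases before the annotated start, on build GRCh38.p14. Capitals mark matches on either strand to AACNG (the c-MYB core), TTNNGNAA (a C/EBP form) or GAGGAA (a PU.1 form). The RNASE2 stretch is chr14:20955237-20955476 and the RNASE3 stretch chr14:20891135-20891374, both on the plus strand.
RNASE2: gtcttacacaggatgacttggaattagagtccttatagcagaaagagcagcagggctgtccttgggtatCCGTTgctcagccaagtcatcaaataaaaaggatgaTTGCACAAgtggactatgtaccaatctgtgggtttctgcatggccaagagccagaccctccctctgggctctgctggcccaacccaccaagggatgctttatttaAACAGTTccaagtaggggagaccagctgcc
RNASE3: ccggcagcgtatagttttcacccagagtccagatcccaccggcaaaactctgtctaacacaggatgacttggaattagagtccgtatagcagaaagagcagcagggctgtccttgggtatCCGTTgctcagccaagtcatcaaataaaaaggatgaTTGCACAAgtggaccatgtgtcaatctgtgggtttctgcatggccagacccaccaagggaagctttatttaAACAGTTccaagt
Aligned to each other, they were identical at 182 of 189 aligned bases (96.3%), and the alignment covered 78.75% of the window. Bases without a partner in the alignment were left out of this identity. Both held the C/EBP form TTGCACAA, a c-MYB core as CCGTT and an overlapping pair of c-MYB cores within AACAGTT. The places and spacing of these matches differed. Relative to the annotated start, TTGCACAA began at -145 in RNASE2 and -94 in RNASE3, and AACAG at -40 and -23.

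The next 3 stretches belong to CTSG, which was abundant, and to its relatives PRTN3 and AZU1, which had almost no counts. They are chr14:24576261-24576500 on the minus strand for CTSG, and chr19:840749-840988 and chr19:827587-827826 on the plus strand for PRTN3 and AZU1.
CTSG: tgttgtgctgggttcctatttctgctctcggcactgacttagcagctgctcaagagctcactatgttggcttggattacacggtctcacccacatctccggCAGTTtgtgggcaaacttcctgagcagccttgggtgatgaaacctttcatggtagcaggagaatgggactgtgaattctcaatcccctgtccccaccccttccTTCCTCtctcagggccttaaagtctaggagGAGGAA
PRTN3: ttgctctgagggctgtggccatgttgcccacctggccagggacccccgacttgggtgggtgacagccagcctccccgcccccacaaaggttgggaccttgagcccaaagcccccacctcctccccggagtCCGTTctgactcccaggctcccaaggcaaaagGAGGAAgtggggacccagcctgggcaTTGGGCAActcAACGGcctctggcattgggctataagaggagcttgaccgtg
AZU1: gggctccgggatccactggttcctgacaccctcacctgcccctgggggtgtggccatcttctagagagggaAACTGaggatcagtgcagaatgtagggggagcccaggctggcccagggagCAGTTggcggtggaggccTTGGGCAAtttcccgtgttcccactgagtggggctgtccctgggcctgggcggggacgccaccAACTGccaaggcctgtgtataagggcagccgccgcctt
PRTN3 and AZU1 shared the C/EBP form TTGGGCAA, and CTSG had no match to the C/EBP letters. CTSG held 2 matches to GAGGAA, PRTN3 held 1 and AZU1 none. These letters are common. Of 35116 promoter stretches of the same length, 69.1% held AACNG, 32.5% TTNNGNAA and 22.6% GAGGAA, so the matches are a description of the sequence and do not show binding.

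The libraries held between 11006035 and 13872810 counts. Levels are given as CPM, the count relative to the library size as scaled by TMM in edgeR. All 10 monocytic markers passed the filter on low counts, but their levels were uneven. With DMSO they ran from 5.72 ± 1.89 CPM for CD14 and 16.3 ± 3.04 CPM for CLEC12A up to 281 ± 33.7 CPM for CD68 (SD, n = 3 each). The erythroid markers HBB, HBA1, ALAS2 and EPB42 were at 0 in all libraries. The 5 T-cell, 5 megakaryocytic and 5 epithelial markers summed to at most 1.42 CPM per list in any library. Of the eosinophil granule genes PRG2, PRG3, EPX and CLC, 3 were at 0 and PRG2 had at most 5 counts.

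The granule genes fell into 3 classes of level. LYZ, SRGN, CTSG and RNASE2 were abundant, RNASE3, MPO and CST7 were low but counted in every library, and AZU1, PRTN3 and ELANE were at or near 0. Together the 10 genes took between 0.351% and 0.472% of all counts, at 0.414% ± 0.0507 with DMSO and 0.395% ± 0.0650 with WFA (SD, n = 3 each). Levels of different genes were compared as CPM per kilobase of exonic sequence in GENCODE 29. With DMSO, SRGN stood at 1034 ± 151 and LYZ at 1033 ± 158 CPM per kilobase (SD, n = 3 each), and these genes overlapped. RNASE2 at 456 ± 93.8 and CTSG at 429.6 ± 119.7 CPM per kilobase came next and also overlapped. With the longest transcript as the length, LYZ stood above SRGN, at 1191 against 1044 CPM per kilobase. RNASE3 followed at 11.04 ± 2.78, CST7 at 1.73 ± 0.730, MPO at 0.697 ± 0.176 and AZU1 at 0.101 ± 0.0679 CPM per kilobase (SD, n = 3 each). From LYZ to RNASE2, and for each step from CTSG down to AZU1, the higher gene lay above the lower gene in all 6 libraries without overlap.

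**Figure D1:**
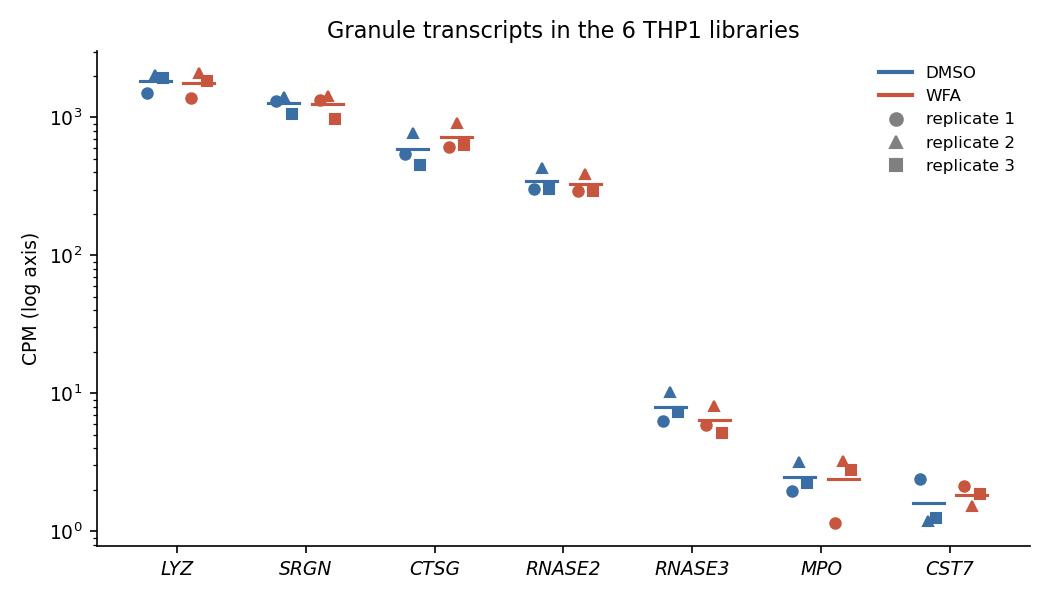
CPM (log axis) of the 7 granule genes that passed the filter on low counts, in each of the 6 libraries. Blue is DMSO, red is WFA, the marker shape gives the replicate number and the short line the group mean. LYZ, SRGN, CTSG and RNASE2 sat between 294.6 and 2089.5 CPM and RNASE3, MPO and CST7 between 1.14 and 10.2 CPM, and the groups overlapped for every gene.

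The serine protease family was uneven, with CTSG abundant and AZU1, PRTN3 and ELANE at or near 0. Its genes are AZU1 (chr19:827837-832018), PRTN3 (chr19:840999-848175) and ELANE (chr19:852303-856243), side by side on chromosome 19, and CTSG (chr14:24573518-24576250) on chromosome 14. ELANE had 0 counts in all 6 libraries, a total of 74318174 counts, which allows a level of up to 0.0404 CPM. PRTN3 had 0 counts in each DMSO library, and 1, 0 and 1 in WFA replicates 1, 2 and 3. AZU1 had 2, 4 and 1 counts with DMSO and again 2, 4 and 1 with WFA. A level up to between 0.216 and 0.273 CPM cannot be told from 0 in a single library, since that is what 3 counts stand for there, and these limits cover counting error only. CTSG had between 5441 and 11353 counts. The count of 0 also depends on how reads were assigned, because RPS18, a ribosomal protein gene that every cell uses, had at most 1 count in any library. No fold change is given for AZU1, PRTN3 and ELANE, which were not tested.

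The genes around each locus were also uneven. CFD, the complement factor D gene that follows ELANE and also encodes a serine protease, had at most 1 count. Beyond it MED16, a Mediator subunit, stood at 12.3 ± 1.00 CPM and R3HDM4 at 40.7 ± 3.62 CPM with DMSO (SD, n = 3 each). On the other side PTBP1, a splicing regulator, stood at 412 ± 29.7 CPM with DMSO (SD, n = 3), and MISP had at most 2 counts. None of PTBP1, MED16 and R3HDM4 passed the threshold with WFA (edgeR adjusted p = 0.948, 0.461 and 0.422). LPPR3, the gene just before AZU1 (now PLPPR3), fell from 70.8 ± 7.30 to 47.2 ± 14.7 CPM (SD, n = 3 each), a difference of -0.58 ± 0.16 log2 units (SE, adjusted p = 0.00682 in edgeR). Around CTSG, its nearest relatives were not detectable at this depth. The mast cell chymase gene CMA1 had at most 1 count, and the granzyme genes GZMH and GZMB were at 0 in all libraries. STXBP6, the next gene after GZMB, fell from 6.32 ± 2.86 to 3.25 ± 1.05 CPM (SD, n = 3 each), with -0.96 ± 0.31 log2 units (SE, adjusted p = 0.0193 in edgeR). SDR39U1 and CBLN3, on the other side, had edgeR adjusted p-values of 0.091 and 0.458. With the replicate block SDR39U1 passed (adjusted p = 0.0499 in edgeR).

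Differences of WFA minus DMSO are given in log2 units from the fit, with their standard error (SE). The question for WFA was whether the granule transcripts changed within 6 h. By the quasi-likelihood test of edgeR, with calls made below an adjusted p-value of 0.05, none of the 7 tested granule genes was called higher (0 genes, background 25.8%) or lower (0 genes, background 24.7%), whereas 50.5% of the 12854 tested genes were called. At an unadjusted p-value under 0.05 none of the 7 passed either, against 56% of the tested genes, and DESeq2 called none, against 41.5%. The largest absolute log2 fold change among the 7 was 0.31, and 44.7% of the tested genes were at or under that size. Their median absolute log2 fold change was 0.08, against 0.36 over all tested genes, and their median log2 fold change was -0.04, against 0.02. All 7 lay within 0.5 of 0 on the log2 scale, as did 63.4% of the tested genes. All 7 had a 95% interval inside a 2-fold change either way, as had 72% of the tested genes. In 3 of the 7 (CTSG, RNASE2 and RNASE3) the WFA minus DMSO difference had the same sign in all 3 experiments, as in 73.8% of the tested genes. The groups overlapped for all 7, whereas 58.1% of the tested genes had no overlap. Among genes within 2-fold of the same level, between 35.2% (for LYZ) and 55.6% (for RNASE2) were called. The exact two-sided permutation p-values of the 7 genes lay between 0.4 and 1, where 0.1 is the smallest that 3 against 3 libraries allow. The overlap, this permutation and the tests above take no account of which libraries shared an experiment. With the replicate block, which does, 1 of the 7 was called (CTSG, below). Since THP1 RNA was taken from whole cultures, fewer expressing cells and less RNA per cell cannot be told apart.

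LYZ and SRGN were the most abundant granule genes. LYZ stood at 1508, 2037 and 1923 CPM in DMSO replicates 1, 2 and 3 and at 1381, 2089.5 and 1822 CPM in WFA replicates 1, 2 and 3. Replicate 1 was the lowest library in both groups. For LYZ the fitted difference was -0.05 ± 0.14 log2 units (SE, adjusted p = 0.811 in edgeR), with a 95% interval of 0.781-fold to 1.20-fold. Exons of LYZ overlap the antisense gene AC020656.1 in GENCODE 29, and since the library kit does not mark strand, reads of both cannot be told apart. SRGN stood at 1322, 1407 and 1054 CPM with DMSO and at 1343, 1431 and 979 CPM with WFA in the same order. Replicate 3 was the lowest library in both groups. For SRGN the fitted difference was -0.01 ± 0.14 log2 units (SE, adjusted p = 0.953 in edgeR), with a 95% interval of 0.807-fold to 1.22-fold.

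CTSG was the granule gene whose call depended on the fit. It stood at 545, 773 and 453 CPM in DMSO replicates 1, 2 and 3 and at 612, 914 and 631 CPM in WFA replicates 1, 2 and 3. The WFA library was higher than the DMSO library of the same experiment in 3 of 3 pairs, by 0.17, 0.24 and 0.48 on the log2 scale, while the groups overlapped. Its fitted difference was 0.29 ± 0.18 log2 units (SE, adjusted p = 0.192 in edgeR), with a 95% interval of 0.94-fold to 1.58-fold. With the replicate number as a block, the fitted difference was 0.30 ± 0.08 log2 units (SE, adjusted p = 0.000666 in edgeR), with a 95% interval on the log2 scale of 0.14 to 0.45. With 2 residual degrees of freedom, that fit took the spread of every gene from the trend over all genes. Its SE, p-value and interval therefore do not measure the spread of CTSG itself over the 3 experiments. CTSG was the only 1 of the 7 called with the block, where 59% of all tested genes were called and 30.2% were called higher. DESeq2 with the block also called it (adjusted p = 0.00439), and over 15 alternative settings it was called in 4. Its dispersion was 2.93 times the trend, and 2.92% of the tested genes were over 2 times. When DMSO replicate 2 was left out, the value was 0.52 and passed (adjusted p = 0.0107 in edgeR). When WFA replicate 2 was left out, it was 0.08 (adjusted p = 0.735 in edgeR).

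The RNases were followed one by one and as a sum. RNASE2 stood at 304, 426 and 303.5 CPM in DMSO replicates 1, 2 and 3 and at 295, 389 and 294.6 CPM in WFA replicates 1, 2 and 3. Replicate 2 was the highest library in both groups. For RNASE2 the fitted difference was -0.08 ± 0.14 log2 units (SE, adjusted p = 0.659 in edgeR), with a 95% interval of 0.773-fold to 1.16-fold. RNASE3 stood at 6.33, 10.2 and 7.33 CPM with DMSO and at 5.88, 8.13 and 5.12 CPM with WFA in the same order. The WFA library had the lower value in 3 of 3 pairs, with differences of -0.10, -0.32 and -0.51 on the log2 scale, but the groups overlapped. Its fitted difference was -0.31 ± 0.22 log2 units (SE, adjusted p = 0.255 in edgeR). The replicate block with TMM left it uncalled (adjusted p = 0.0992 in edgeR). With total counts in place of TMM, a blocked fit added after seeing the data called it lower.

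RNASE2 had between 41.4 and 57.6 times the counts of RNASE3 in the same library. RNASE3 made up between 1.71% and 2.36% of the counts of both genes, and the exact 95% binomial intervals of all 6 libraries lay between 1.29% and 2.90%. The longest transcripts of these paralogs were identical at 640 of 720 aligned bases (88.9%). Of the stretches of 50 bases in the RNASE3 transcript, 3.13% also occurred in RNASE2, and 13.6% of the stretches of 30 bases did. How many RNASE3 counts came from RNASE2 reads was not tested. Counted together, RNASE2 and RNASE3 differed by -0.08 ± 0.14 log2 units (SE, adjusted p = 0.639 in edgeR).

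MPO and CST7 were low, and their intervals were the widest of the 7. MPO had 28, 40 and 27 counts in DMSO replicates 1, 2 and 3 and 14, 40 and 30 counts in WFA replicates 1, 2 and 3. WFA replicate 1 was the lowest library. The MPO fitted difference was -0.04 ± 0.33 log2 units (SE, adjusted p = 0.925 in edgeR), with a 95% interval of 0.592-fold to 1.59-fold. CST7 had 34, 15 and 15 counts with DMSO and 26, 19 and 20 counts with WFA in the same order. Replicate 1 was the highest library in both groups. The CST7 fitted difference was 0.17 ± 0.32 log2 units (SE, adjusted p = 0.685 in edgeR), with a 95% interval of 0.701-fold to 1.80-fold.

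**Figure D2:**
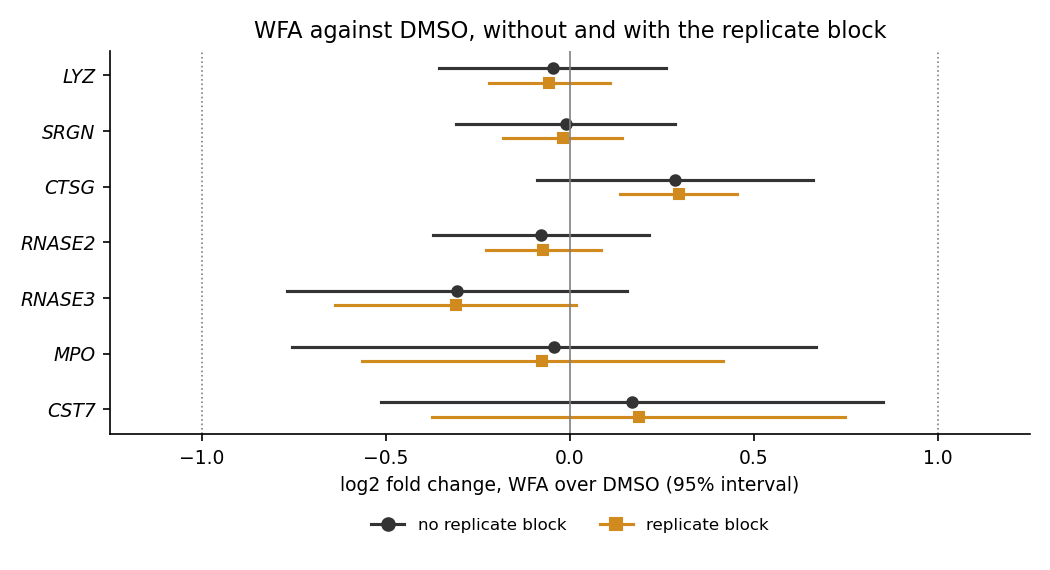
Log2 fold change of WFA over DMSO with its 95% interval for the 7 tested granule genes, from edgeR without the replicate block (black circles) and with it (orange squares). Dotted lines mark a 2-fold change. All intervals lie inside 2-fold, and only the CTSG interval with the block, 0.14 to 0.45, lies off 0. Intervals with the block take their spread from the trend over all genes and not from each gene's own experiments.

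Levels of the granule genes also differed between the experiments. Replicate 2 had the highest level in both groups for 6 of the 7 tested granule genes, all but CST7, and 15.4% of the tested genes had this pattern. The same replicate was highest in both groups for all 7, as for 44.5% of the tested genes. The experiment means of log2 CPM, taken over both treatments, spanned a median of 0.56 over the 7 genes, against 0.21 over all tested genes. For all 7 this span was larger than the WFA log2 fold change, as it was for 33.8% of the tested genes. When the experiment was tested as a term beside the treatment, it was called for CTSG, LYZ, SRGN and RNASE2, 4 of the 7 granule genes, and for 6.22% of all tested genes. The edgeR adjusted p-values were 4.66e-09 for CTSG, 7.04e-05 for RNASE2, 0.000209 for LYZ and 0.000369 for SRGN. They were 0.0573 for RNASE3, 0.064 for MPO and 0.313 for CST7. CTSG was 0.54 higher and RNASE2 0.44 higher on the log2 scale in experiment 2 than in experiment 1, and LYZ 0.52 higher. SRGN was 0.09 higher in experiment 2 than in experiment 1, and in experiment 3 it differed from experiment 1 by -0.39. This test was chosen after the values were seen. In it the spread of each gene came from the trend over all genes, so its p-values do not measure the gene's own spread. Only CTSG was still called without DMSO replicate 2, and likewise without WFA replicate 2. The summed level of the 10 monocytic markers was also highest in replicate 2 of each group, at 1176 and 1114 CPM, but the other libraries were close, at 1174 and 1077 CPM with DMSO and 1074 and 999 CPM with WFA. Culture, RNA preparation and sequencing of an experiment cannot be told apart.

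**Figure D3:**
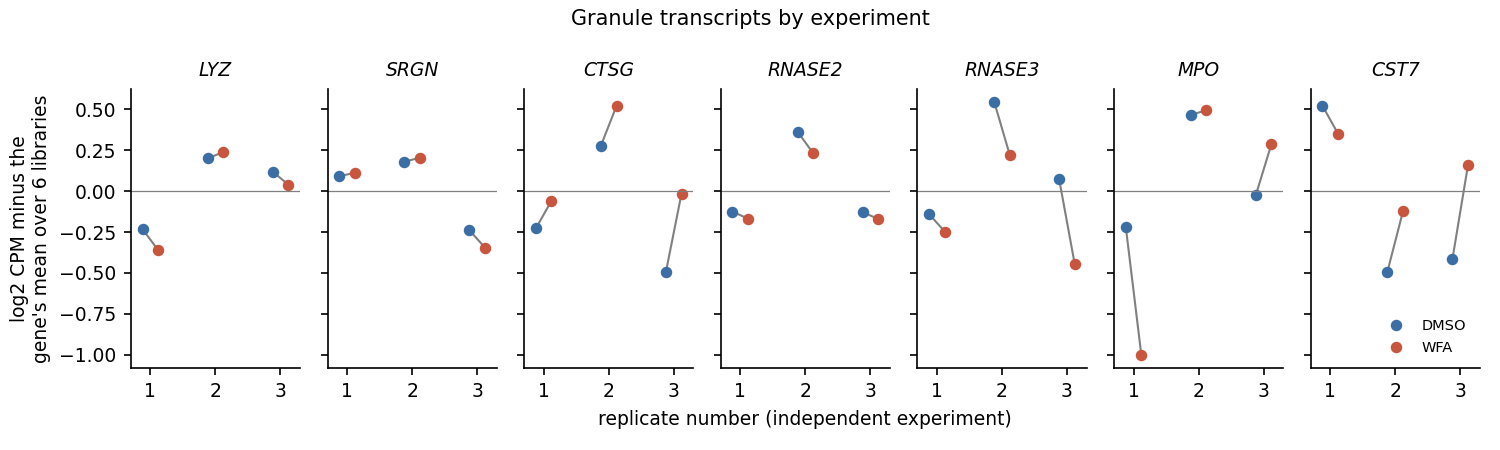
Log2 CPM of each tested granule gene minus its mean over the 6 libraries, by replicate number, which stands for the independent experiment. Grey lines join the DMSO (blue) and WFA (red) libraries of one experiment. The joined points of LYZ, SRGN and RNASE2 lie close together while the experiments lie apart, and for CTSG the WFA point is above the DMSO point in 3 of 3 experiments.

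Further granule genes were counted in the same fit, in which 25.8% of all tested genes were called higher and 24.7% lower. Of 11 further azurophil genes 5 were tested, with 1 called higher and 1 lower, near those shares, and a median log2 fold change of 0.16. HEXA, a lysosomal hexosaminidase subunit, rose by 0.26 (SE 0.09, adjusted p = 0.0279 in edgeR), but DESeq2 did not call it (adjusted p = 0.0519). No azurophil gene was called without DMSO replicate 1 (0 of the list) or without WFA replicate 3 (0 of the list). CD63, a granule membrane tetraspanin, and GUSB, the lysosomal glucuronidase, had log2 fold changes of 0.18 and 0.16 and were not called. With the replicate block CD63 passed (adjusted p = 0.0321 in edgeR). The defensin genes DEFA1, DEFA1B and DEFA3 were at 0 in all libraries, and DEFA4, BPI and PRSS57 were not tested for low counts. Of 20 specific and gelatinase granule genes 12 were tested, with 0 higher and 2 lower and a median log2 fold change of 0.05, and the block gave 2 higher and 2 lower, where the shares of all tested genes were 30.2% and 28.8%. PTX3, a secreted pattern recognition protein, fell from 8.75 ± 1.43 to 2.31 ± 0.269 CPM, -1.91 ± 0.21 log2 units (SE, adjusted p = 2.85e-06 in edgeR). CYBB, the catalytic subunit of the NADPH oxidase, fell from 176 ± 19.0 to 99.3 ± 19.3 CPM, -0.82 ± 0.12 log2 units (SE, adjusted p = 5.72e-05 in edgeR). CYBA, its partner, and HP (haptoglobin) had log2 fold changes of 0.29 and -0.60 and were not called. With the replicate block CYBA was called higher (edgeR adjusted p = 0.000617). In the lymphocyte granule list, 5 of 8 genes were at 0 and only NKG7 was tested, at 0.28 log2 units (adjusted p = 0.294 in edgeR).

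Genes for protease processing and inhibition and for granule sorting included genes called in both directions, beside 25.8% higher and 24.7% lower of all tested genes. Of 15 genes for protease processing and inhibition 13 were tested, with 2 higher and 6 lower and a median of -0.20. SERPINB2, a plasminogen activator inhibitor, fell from 55.1 ± 5.05 to 5.05 ± 2.11 CPM, -3.43 ± 0.19 log2 units (SE, adjusted p = 3.02e-09 in edgeR). CTSL, a lysosomal cysteine cathepsin, rose from 96.0 ± 2.92 to 218 ± 45.7 CPM, 1.18 ± 0.13 log2 units (SE, adjusted p = 2.12e-06 in edgeR). SERPINB8 fell with a log2 fold change of -0.64 and CSTB, an intracellular cystatin, rose with 0.63. CTSC, which activates CTSG and its relatives, fell from 237 ± 4.67 to 183 ± 27.4 CPM, -0.37 ± 0.10 log2 units (SE, adjusted p = 0.00761 in edgeR), and was added to the named genes after its value was seen. Of 20 genes for granule sorting and secretion 19 were tested, with 4 higher and 4 lower, near the shares of all tested genes, and a median of 0.03. SNAP23, a membrane fusion protein of regulated secretion, rose from 99.0 ± 3.78 to 336 ± 40.0 CPM, 1.76 ± 0.10 log2 units (SE, adjusted p = 2.89e-09 in edgeR). LYST, the gene of Chediak-Higashi syndrome with its giant granules, fell from 1106 ± 15.2 to 478 ± 23.8 CPM, -1.21 ± 0.09 log2 units (SE, adjusted p = 4.88e-08 in edgeR). UNC13D, a priming factor of secretion, rose with a log2 fold change of 0.68 and STX4 with 0.52, while VPS33B fell with -0.42.

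Genes that build the sugar chains of SRGN and the heme of MPO were counted as 2 further lists, beside the 50.5% of all tested genes that were called (25.8% higher and 24.7% lower). Of 12 genes for proteoglycan chain synthesis 1 was higher and 4 were lower, with a median of -0.07. UST, a uronyl sulfotransferase, rose from 4.83 ± 0.583 to 17.2 ± 4.61 CPM, while the chain-starting enzymes XYLT1 and B3GALT6 and the chondroitin synthase CHSY1 fell with log2 fold changes of -0.71, -0.80 and -0.58. Of 11 genes for heme synthesis and ER folding 5 were higher and 1 was lower, with a median of 0.23. ALAS1, the first enzyme of heme synthesis, rose to 165.8 ± 17.6 CPM, by 1.14 log2 units. FECH, which inserts the iron, rose with a log2 fold change of 0.55 and CPOX with 0.40. Of the 10 monocytic markers 1 was called higher (CD68) and 5 lower, with CD14, CD36 and CD33 among those that fell, against 25.8% and 24.7% of all tested genes. Among the B-cell markers CD79B was called higher and PAX5 lower, and the list had a summed level of at most 5.72 CPM in any library.

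The transcription factors known to act on granule genes were mostly lower with WFA. Of 12 tested, 1 was called higher and 8 lower, with a median log2 fold change of -0.46, against 0.02 over all tested genes, of which 24.7% were called lower. This list was chosen with earlier results of these data known, so its count beside that share is a description only. MYB itself fell from 396 ± 21.7 to 80.2 ± 16.5 CPM, or -2.30 log2 units (adjusted p = 2.89e-09 in edgeR). GFI1, IRF8 and RUNX1 fell with log2 fold changes of -2.68, -2.24 and -1.15. CEBPB rose, with 0.43 ± 0.15 log2 units (SE, adjusted p = 0.0235 in edgeR). CEBPA, which starts the granulocytic program, fell from 299 ± 18.3 to 199.9 ± 14.5 CPM, and SPI1, which encodes PU.1, from 138 ± 21.3 to 109 ± 21.7 CPM (edgeR adjusted p = 7.54e-05 and 0.0461). CEBPE, the factor of secondary granules, was low at 2.23 ± 0.717 and 2.16 ± 0.367 CPM and was not called. CEBPA, SPI1 and CEBPE were added after their values were seen.

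**Figure D4:**
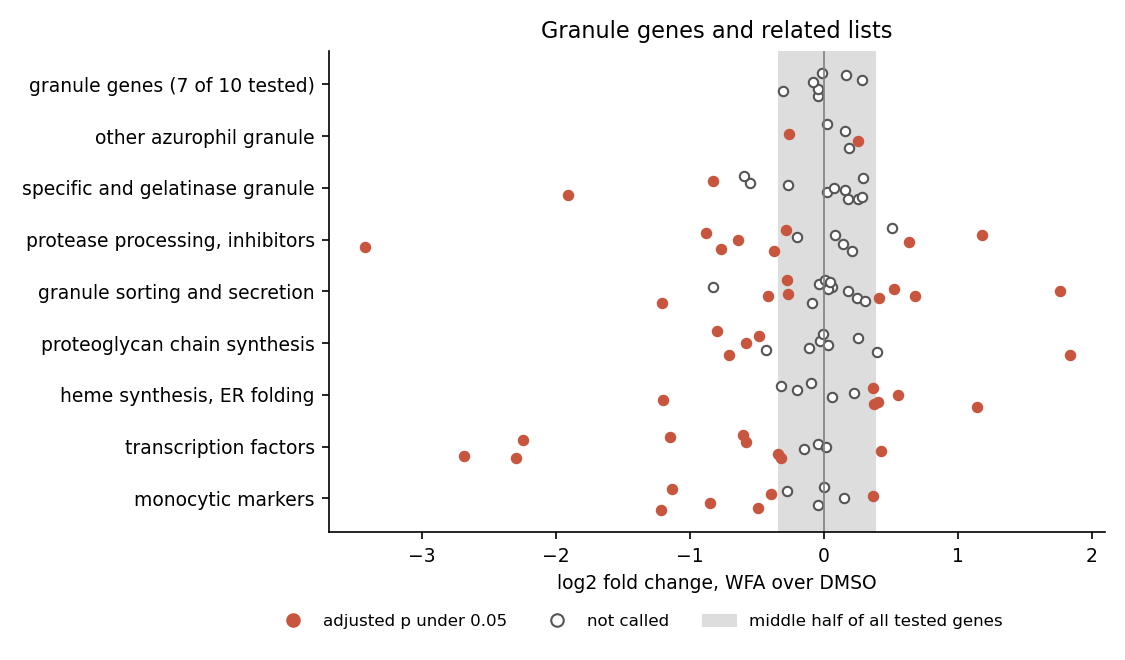
Log2 fold change of WFA over DMSO for each tested gene of the granule genes and of 8 related lists. Red points passed an edgeR adjusted p-value of 0.05, open points did not, and the grey band spans the 25th to 75th percentile of all tested genes (-0.33 to 0.38). All 7 tested granule genes are open and lie inside the band, whereas the transcription factors reach -2.68.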

How the data were processed

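RNA of 3 DMSO and 3 WFA cultures of THP1 cells was sequenced after a TruSeq RNA v2 preparation. The raw counts per gene were deposited by the authors, whose processing notes name bcl2fastq 2.19, Trimmomatic, Bowtie2, Picard, featureCounts and DESeq2 with build hg38, and the annotation is not given in the sources used here. The deposited score columns hold the authors' counts divided by size factors and rounded, and were not used. Columns of the authors' own comparison (fold changes and p-values) were not used either. Genes passing filterByExpr at a minimum count of 10 were tested with edgeR 4.0.16 (TMM, quasi-likelihood, Benjamini-Hochberg adjustment over all 12854 tested genes, threshold 0.05), which runs on limma 3.58.1, in R 4.3.3. DESeq2 1.42.0 was an alternative. Intervals cover 95%. Totals of 11006035 to 13872810 counts set the precision, and intervals and floors cover counting error only where they come from counts.

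The replicate numbers stand for independent experiments. Deviations from the group means of same-numbered libraries correlated at 0.217 to 0.333, and those of other pairs at -0.256 to 0.00369, so the replicate number was also fitted as a block. In the blocked edgeR fit the spread of each gene came wholly from the trend over all genes. No 2 libraries agreed within sampling noise. On simulated counts for this comparison (12700 genes tested), the unblocked test found 79.8% of 2-fold changes and the blocked test 85.9%, and 1.67% and 4.21% of their calls were false. The unblocked test ran on counts simulated without an experiment effect and the blocked test on counts with one, so the 2 tests cannot be compared. Spread was simulated at the trend, whereas the 7 tested granule genes lay at 1.24 (CST7) to 2.93 (CTSG) times their trend.

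The granule genes and all lists were chosen with earlier results of these data known. Named genes were all 10 granule genes, up to 4 tested genes of each list with the smallest p-value plus up to 2 called against the list's majority, and 3 protein-coding genes on either side of the AZU1-PRTN3-ELANE and CTSG loci. The lists were azurophil, specific and gelatinase, eosinophil and lymphocyte granule genes, protease processing, sorting and secretion, proteoglycan chains, heme and ER folding, transcription factors and markers of 6 cell types. Alternatives were other scalings, filters and tests, the block, and leaving out each library. Motifs and promoter stretches come from RefSeq on GRCh38.p14, and transcript lengths from GENCODE 29. Single-gene values of some list genes are not reported here.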

Additional observations from a re-analysis of the deposited data

How the results depend on the processing

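No granule gene was called in the test without the replicate block, and CTSG was the gene called higher in every alternative that called one. The number called higher was 1 with the replicate block, 1 by the DESeq2 Wald test with the replicate block, and 1 with no filter on low counts (adjusted p = 0.028 in edgeR). Leaving out 1 library at a time gave 0 to 1, with CTSG called when DMSO replicate 2 was left out. In fits added after seeing the data, the block gave 1 called higher without either experiment 1, 2 or 3, with total counts, with DESeq2 size factors and with a robust fit, and total counts with the block also gave 1 called lower, RNASE3 (adjusted p = 0.0344 in edgeR). The CTSG difference ranged from 0.08 to 0.52 log2 units over 15 settings. In edgeR with TMM and in DESeq2, the block changed no other call among the granule genes. The test of the experiment, also added after seeing the data, called 1 to 6 granule genes when 1 library was left out. Signs turned for uncalled genes when 1 library was left out. The differences then ranged from -0.34 to 0.30 log2 units for MPO, -0.19 to 0.10 for LYZ, -0.13 to 0.14 for SRGN, -0.22 to 0.0915 for RNASE2, -0.0216 to 0.59 for CST7 and -0.23 to 0.0873 for RNASE2 and RNASE3 counted together. Leaving out DMSO replicate 2 turned the sign of each of these. With the replicate block, MPO was 0.15 without experiment 1 and SRGN 0.0236 without experiment 3. CTSG and RNASE3 kept their sign in the 15 settings. The cause of these changes was not tested. With 3 libraries a group, and counts of 14 to 40 for MPO and CST7, changes of the size of their intervals were not detectable at this depth.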
